A study of Mus musculus with 4 samples.

Results

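Laminin chain genes and integrin subunit genes were examined in bulk liver tumours of mice with and without deletion of Tfrc in the liver. The members were the protein-coding genes of the deposited table whose GENCODE M21 symbols name a laminin alpha, beta or gamma chain or an integrin alpha or beta subunit. They numbered 37 of 55487 genes: 11 laminin chains, 18 integrin alpha subunits and 8 integrin beta subunits. In every animal the Alb-cre allele, a Cre driven by albumin, was combined with H11-Myc, a Myc transgene, and the tumours are c-Myc-driven hepatocellular carcinoma (HCC). Compared were 2 mice labelled knockout (KO), with liver-conditional deletion of Tfrc, whose product takes up iron carried by transferrin, and 2 mice labelled wild type (WT). The albumin promoter acts in hepatocytes and their descendants, so stromal cells, leukocytes and platelets of the KO tumours are not its intended targets. Age, sex and tumour stage are not given in the sources used here.

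Laminins are heterotrimers of an alpha, a beta and a gamma chain and form the sheet of the basement membrane, which nidogens, perlecan and type IV collagen complete. Integrins are heterodimers of an alpha and a beta subunit that anchor cells to matrix or to other cells, and the alpha subunit largely sets the ligand. In normal liver the sinusoids have little continuous basement membrane, while vessels and bile ducts have one. The beta 2 and beta 7 integrins belong to leukocytes, and alpha IIb with beta 3 is the fibrinogen receptor of platelets.

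Total counts were 15918349 and 16421439 in KO replicates 1 and 2, and 16414883 and 17052943 in WT replicates 1 and 2. Levels are given as CPM, counts relative to library size scaled with TMM factors, except where FPKM, the deposited level per length of gene, is named. Tfrc had 5407 and 3244 counts in the KO libraries and 8441 and 3603 counts in the WT libraries. The groups overlapped (log2 fold change -0.37, SE 0.45), so Tfrc did not check the labels, and KO stands throughout for the libraries labelled knockout. The mitochondrial share of counts was 9.8% and 16.6% in KO, and 8.69% and 4.13% in WT. WT replicate 2 stood apart on the first principal component (86.6, against -37.0 and -38.5 in KO and -11.2 in WT replicate 1). On the second, WT replicate 1 was lowest (-66.7, against 3.11 and 49.1 in KO and 14.5 in WT replicate 2). These components held 48.2% and 32.6% of the variance. The 9 hepatocyte markers found, of which Alb and Ttr were the highest and Ass1, Apob and Ttr had the smallest p, summed to 32889 and 30326 CPM in KO, and 12326 and 42580 CPM in WT. Both KO libraries lay between the WT libraries.

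Most of these genes stood lower in the KO tumours, and none passed the threshold of edgeR's quasi-likelihood test over all genes. Of the 37 members, 34 passed the filter on low counts, and Itgae, Itgb6 and Itgb8 did not. Itgae, which encodes the alpha E chain of mucosal T cells, had 4 and 10 counts in KO, and 8 and 6 counts in WT. Itgb6 and Itgb8, epithelial beta subunits that bind latent TGF-beta, had at most 7 and 16 counts in any library. Among the 34 tested members 26 had a negative log2 fold change (76.5%), beside 49.6% of all 16310 tested genes, and the median was -0.53 (-0.32 without WT replicate 1), beside 0.01 for all tested genes. Both KO libraries lay below both WT libraries in 13 members (38.2%, beside 20.1% of all tested genes) and above them in 2 (beside 21.9%). At an adjusted p under 0.05, edgeR called 0 members, beside 0% of all tested genes. At an unadjusted p under 0.05, edgeR had 6 members lower, beside 4.35% of all tested genes, and 0 higher, beside 3.95% (8.3% in either direction). DESeq2 called 3 members lower, Itgad, Itgb3 and Lamb1, beside 0.565% of the genes it gave an adjusted p, and 0 higher, beside 0.432%. In either direction DESeq2 called 0.997% of genes. By limma-voom 0 members were called, beside 0.00613% of all tested genes. Without WT replicate 1, edgeR called 2 members lower, Itgad and Itgb3, beside 1.17% of the genes then tested. In bulk tissue, fewer cells of a type and less RNA per cell cannot be told apart.

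**Figure D1:**
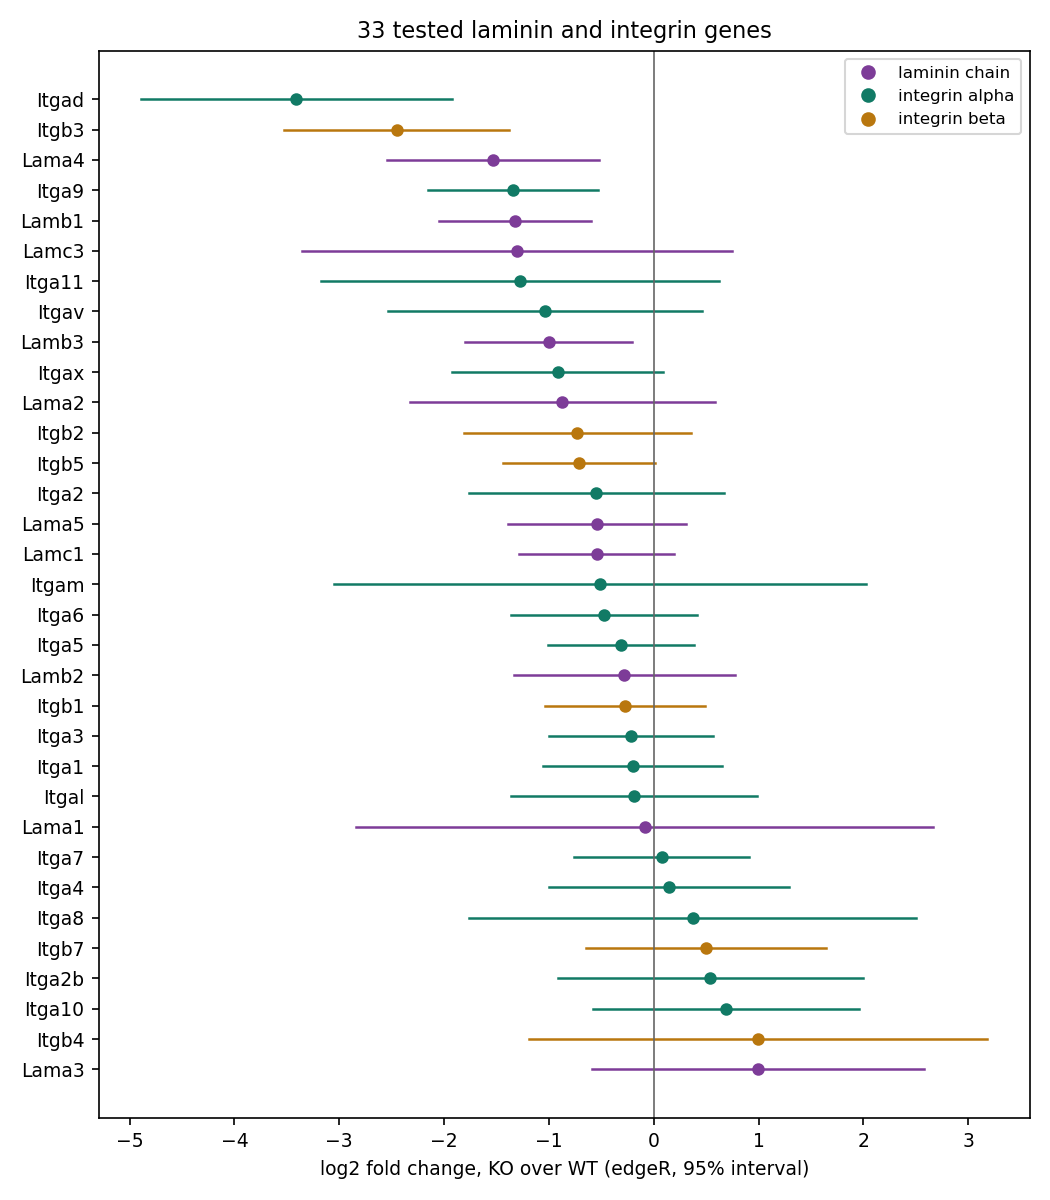
Log2 fold change of 33 of the 34 tested laminin and integrin genes, KO over WT (horizontal axis), with the 95% interval of edgeR's quasi-likelihood fit as a line. Colour gives laminin chains, integrin alpha and integrin beta subunits. The intervals of Itgad, Itgb3, Lama4, Itga9, Lamb1 and Lamb3 lie below 0, and 0 of these 6 passed the adjusted threshold.

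By deposited FPKM the most abundant members were the beta subunits Itgb1 and Itgb5 and the alpha subunit Itga5. Itgb1, the shared beta chain of most matrix receptors, had 31.0 and 21.3 FPKM in KO, and 38.0 and 26.7 FPKM in WT. Itgb5, which pairs with alpha v to bind vitronectin, had 23.0 and 18.4 FPKM in KO, and 34.4 and 33.8 FPKM in WT. Itga5, the fibronectin receptor chain, had 19.9 and 22.3 FPKM in KO, and 30.1 and 23.5 FPKM in WT. In KO the levels of these 3 overlapped, so their order was not resolved, and in WT both Itgb5 libraries lay above both Itga5 libraries. The next were Lama5, Itgb2, Lamb2, Lamc1 and Itgax, with means over the 4 libraries of 6.99, 6.99, 6.86, 5.90 and 5.26 FPKM, and their ranges over the libraries overlapped each other. The other 29 members had means of 4.30 FPKM or less.

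The RefSeq table (GRCm38.p6, the build of the mm10 files) held promoter windows for 23 of the 37 members. Windows of 300 bases, from 250 before to 50 after a RefSeq start, are shown for the 3 tested members with the smallest unadjusted p whose window holds the annotated 5′ end of the gene. They are a laminin, a beta subunit and a leukocyte alpha subunit, all on the plus strand. Capitals mark matches on either strand to the following letters, and no matches overlapped. The E-box was searched as CACGTG. The TATA box was searched as TATAAA. For the NF-Y motif the letters were CCAAT. For the GC box the letters were GGGCGG. The core of sites for PU.1, a myeloid factor, was searched as GAGGAA.
Lamb1, chr12:31265043-31265342: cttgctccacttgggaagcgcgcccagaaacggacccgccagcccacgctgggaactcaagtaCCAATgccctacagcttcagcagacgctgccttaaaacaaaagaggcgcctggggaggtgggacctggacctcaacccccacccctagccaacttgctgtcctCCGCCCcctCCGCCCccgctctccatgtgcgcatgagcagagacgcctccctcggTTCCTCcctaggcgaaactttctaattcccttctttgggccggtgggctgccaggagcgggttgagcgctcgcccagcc
Itgb5, chr16:33829415-33829714: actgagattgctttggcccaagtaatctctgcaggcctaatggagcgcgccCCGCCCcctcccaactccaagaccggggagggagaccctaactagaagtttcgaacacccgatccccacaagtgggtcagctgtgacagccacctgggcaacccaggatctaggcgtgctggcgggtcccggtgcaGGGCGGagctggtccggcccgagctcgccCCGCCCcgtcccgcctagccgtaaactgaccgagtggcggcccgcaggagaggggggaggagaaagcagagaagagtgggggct
Itgax, chr7:128129300-128129599: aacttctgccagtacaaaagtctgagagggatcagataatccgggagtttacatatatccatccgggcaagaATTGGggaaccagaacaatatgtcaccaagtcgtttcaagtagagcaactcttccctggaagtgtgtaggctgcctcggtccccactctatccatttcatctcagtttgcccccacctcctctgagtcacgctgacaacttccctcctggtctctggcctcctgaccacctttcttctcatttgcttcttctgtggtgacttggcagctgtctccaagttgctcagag
The Lamb1 window held 2 GC boxes, 1 NF-Y motif and 1 PU.1 core, that of Itgb5 held 3 GC boxes, and that of Itgax held 1 NF-Y motif. Their GC contents were 63.7%, 65.7% and 50%. The E-box that MYC-MAX dimers bind was in 0 of the 26 member windows and in 7.15% of 32851 RefSeq windows, and the TATA box was in 0 and in 13.6%. The GC box was in 46.2% of member windows and 35.7% of all, the PU.1 core in 53.8% and 28.3%, and the NF-Y motif in 15.4% and 37.4%. A match is a run of letters, not a bound site.

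Among laminin chains the beta chains Lamb1 and Lamb3 and the alpha chain Lama4 were lower in both KO libraries, while the most abundant alpha chain, Lama5, overlapped. Of the 11 laminin genes, all tested, 10 had a negative log2 fold change (beside 49.6% of all tested genes), 5 had both KO libraries below both WT libraries (beside 20.1%) and 1 had them above (beside 21.9%). Their median log2 fold change was -0.76.

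Lama5, the alpha chain of vascular and epithelial basement membranes, had 54.2 and 84.7 CPM in KO, and 120 and 82.2 CPM in WT. KO replicate 2 lay above WT replicate 2, and the log2 fold change was -0.54 (SE 0.36, edgeR adjusted p = 0.687). Lama4, the alpha chain of endothelial and muscle-type basement membranes (ENSMUSG00000019846, chromosome 10, 38965515 to 39110188), had 9.44 and 5.11 CPM in KO, and 19.4 and 22.6 CPM in WT. Both KO libraries were lower, with a log2 fold change of -1.53 (SE 0.43, edgeR adjusted p = 0.545). Lama2, the chain of muscle and nerve basement membranes, had 1.23 and 3.09 CPM in KO, and 3.70 and 4.22 CPM in WT, without overlap. Lama3, the alpha chain of the hemidesmosome laminin of epithelia, had 1.85 and 3.47 CPM in KO, and 1.80 and 0.845 CPM in WT. KO replicate 1 and WT replicate 1 of Lama3 nearly coincided, so its separation, the only upward separation among laminins, rested on 30 and 33 counts. Lama1, an alpha chain of embryonic basement membranes, had 2 and 24 counts in KO, and 6 and 22 counts in WT, with replicates 2 high in both groups.

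Lamb1, the beta chain found in most laminins (ENSMUSG00000002900, chromosome 12, 31265234 to 31329644), had 15.5 and 16.2 CPM in KO, and 39.4 and 40.02 CPM in WT. The libraries within each group lay close together, and Lamb1 averaged 15.8 ± 0.514 CPM in KO and 39.7 ± 0.420 CPM in WT (SD, n = 2 each), 2.51-fold higher in WT. This is a log2 fold change of -1.33 (SE 0.31, 95% interval -2.05 to -0.60). The edgeR adjusted p was 0.545, and DESeq2 gave 0.0391, the lowest of its alternatives, whose highest was 1.00. Lamb3, the beta chain of that hemidesmosome laminin (chromosome 1, 193207699 to 193343878), had 18.7 and 13.9 CPM in KO, and 30.4 and 34.9 CPM in WT. Its groups did not overlap, with a log2 fold change of -1.001 (SE 0.34, edgeR adjusted p = 0.548). The Lamb3 span holds G0s2 and Hsd11b1, highly expressed hepatocyte genes on the opposite strand, with 2177 and 3907 counts of G0s2 in KO and 2211 and 3761 in WT. No exon of either overlapped one of Lamb3, and whether reads were counted by strand is not stated by the sources used here. Lamb2, the beta chain of vessel walls and synapses, had 44.0 and 46.2 CPM in KO, and 78.0 and 31.4 CPM in WT. Both KO libraries lay between the WT libraries, and the log2 fold change of -0.28 became 0.49 without WT replicate 1.

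Lamc1, the gamma chain of most laminins, had 54.9 and 42.0 CPM in KO, and 79.3 and 61.8 CPM in WT. Its groups did not overlap, with a log2 fold change of -0.54 (SE 0.31, edgeR adjusted p = 0.660). Lamc3, a gamma chain with a restricted tissue range, had 1.54 and 3.91 CPM in KO, and 11.4 and 2.01 CPM in WT. WT replicate 1 alone was high in Lamc3, and its log2 fold change of -1.30 was 0.40 without that library.

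**Figure D2:**
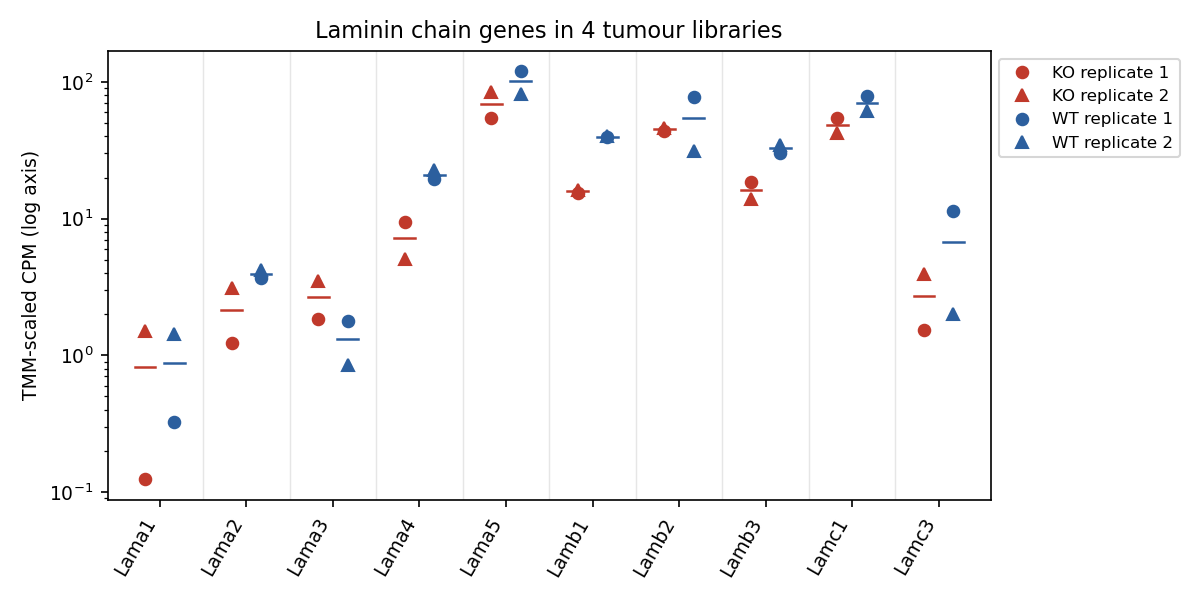
TMM-scaled CPM (vertical log axis) of 10 of the 11 laminin chain genes in each library. Circles are replicates 1, triangles replicates 2, short lines group means, red KO and blue WT. Lama4, Lamb1, Lamb3 and Lamc1 have both KO points under both WT points, while Lama5, Lamb2 and Lamc3 overlap.

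In the make-up of each chain class by FPKM, Lama5 and Lamc1 dominated in all 4 libraries. Lama5 made up 83.1% and 87.4% of the summed laminin alpha FPKM in KO, and 84.99% and 77.1% in WT. Lama4 made up 12.1% and 4.42% in KO, and 11.5% and 17.8% in WT. Lamc1 made up 93.5% and 86.3% of the gamma chains in KO, and 81.7% and 90.6% in WT. The shares of Lama5, Lama4 and Lamc1 overlapped between groups. Among beta chains Lamb2 made up 62.3% and 67.1% in KO, and 60.1% and 35.8% in WT, and Lamb1 made up 13.1% and 14.1% in KO, and 18.2% and 27.3% in WT. Shares were not tested, since with 2 libraries a group the smallest two-sided p of an exact permutation test is 0.333. The alpha and beta chains of the hemidesmosome laminin were far apart in level. Lamb3 had 13.5 and 5.35 times the FPKM of Lama3 in KO, and 22.6 and 55.0 times in WT.

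**Figure D3:**
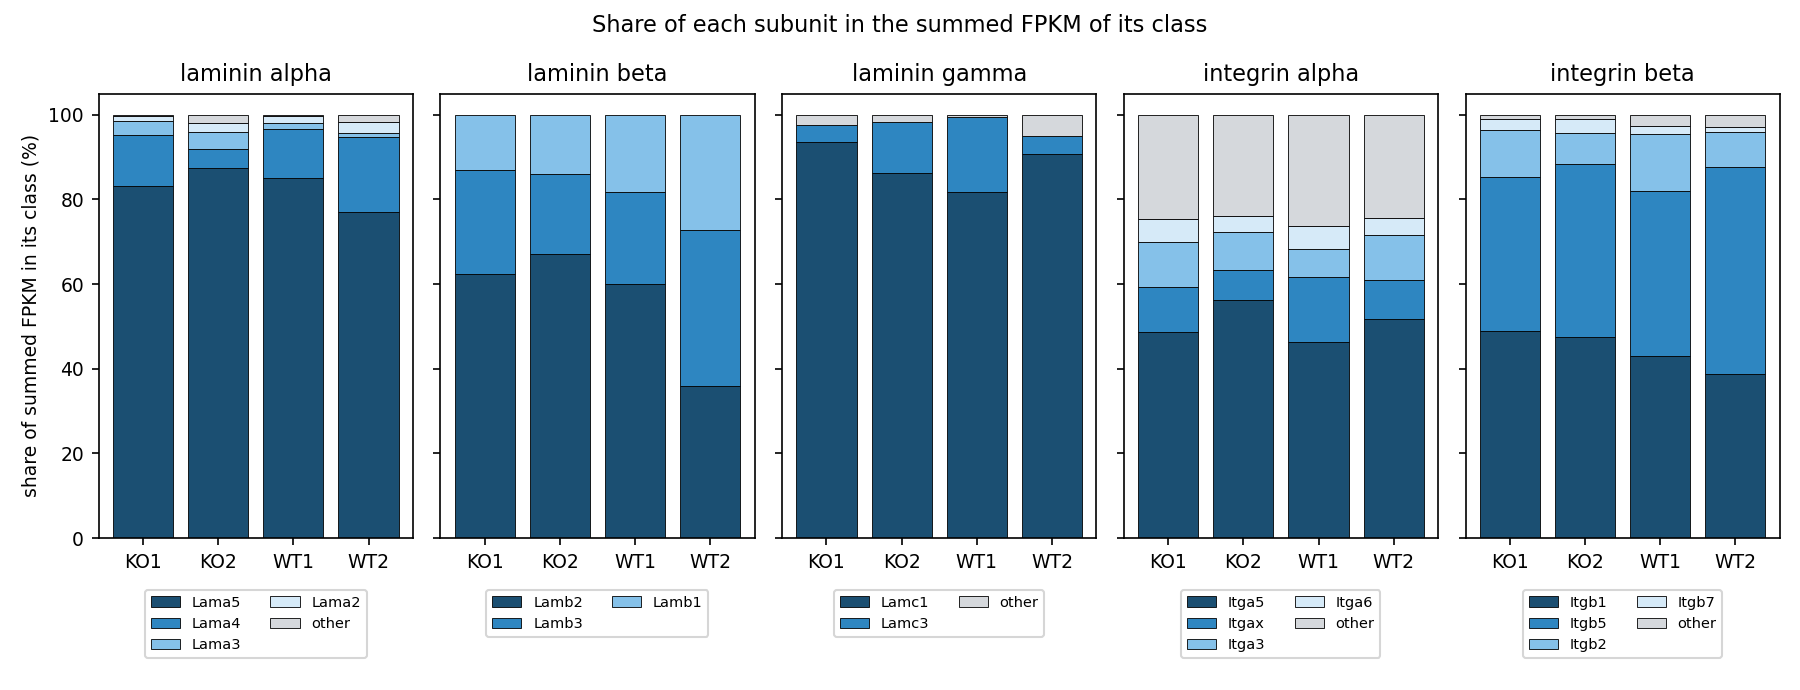
Share of each subunit (percent, vertical axis) in the summed deposited FPKM of its class, for KO replicates 1 and 2 and WT replicates 1 and 2 (horizontal axis). The most abundant members are drawn in blues and the rest in grey. Lama5 and Lamc1 hold most of their classes in each library, and Itgb1 with Itgb5 hold most of the beta subunits.

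Among integrin alpha subunits outside the leukocyte group, Itga9 was the member with the smallest p, and the laminin-binding subunits overlapped between the groups. Of these 13 genes, all tested, 8 had a negative log2 fold change (61.5%, beside 49.6% of all tested genes), 4 had both KO libraries below both WT libraries (30.8%, beside 20.1%) and 0 had them above (beside 21.9%). Their median log2 fold change was -0.21, and it was -0.14 without WT replicate 1 and -0.33 without WT replicate 2.

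The laminin-binding subunits are Itga3 and Itga6, which epithelia and endothelia carry, and Itga7, of muscle. Itga3 had 29.1 and 25.0 CPM in KO, and 26.0 and 36.7 CPM in WT. Its log2 fold change was -0.21 (95% interval -0.995 to 0.568, edgeR adjusted p = 0.869). Itga6 had 27.6 and 19.4 CPM in KO, and 40.2 and 25.2 CPM in WT. Itga7 had 13.0 and 15.8 CPM in KO, and 14.4 and 12.9 CPM in WT. In 0 of these 3 genes were the groups apart. Counts of Itga7 may include reads of Mettl7b on the opposite strand, whose exons share 9 bases with it and which had 3224 counts or more in each library.

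Among collagen-binding subunits, Itga1, found on stellate cells, muscle and T cells, had 34.0 and 31.4 CPM in KO, and 47.7 and 27.5 CPM in WT. The KO libraries lay between those of WT, and the log2 fold change was -0.20 (SE 0.36, edgeR adjusted p = 0.886). Itga2, the collagen receptor chain of platelets and epithelia, had 2.41 and 2.27 CPM in KO, and 3.65 and 3.18 CPM in WT. Itga11, the collagen receptor chain of fibroblasts, had 4 and 13 counts in KO, and 18 and 25 counts in WT. Neither gene overlapped between the groups. Itga10, of cartilage, had 3.89 and 7.32 CPM in KO, and 4.14 and 2.79 CPM in WT, with overlap. An unnamed coding gene, Gm42957, covers 33.5% of the exon bases of Itga10 on the same strand, so the count of Itga10 is uncertain.

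Among subunits that bind the tripeptide RGD (arginine, glycine, aspartate), Itga5 had 113 and 134 CPM in KO, and 155 and 150 CPM in WT. Its groups did not overlap, with a log2 fold change of -0.31 (SE 0.29, edgeR adjusted p = 0.780). Itgav, the vitronectin receptor chain, had 10.5 and 5.42 CPM in KO, and 7.57 and 25.2 CPM in WT. WT replicate 2 alone was high, and the log2 fold change of -1.04 (SE 0.63, edgeR adjusted p = 0.670) was 0.0725 without it. Itga8, of smooth muscle and mesenchyme, had 0.802 and 6.37 CPM in KO, and 2.23 and 3.31 CPM in WT. Itga2b, the alpha IIb chain of platelets, had 33 and 73 counts in KO, and 49 and 29 counts in WT. Both of these overlapped, and KO replicate 2 was the highest library in each.

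Itga9, the receptor chain for tenascin-C and VCAM1 (ENSMUSG00000039115, chromosome 9, 118606690 to 118901003), had 10.7 and 9.02 CPM in KO, and 25.5 and 24.6 CPM in WT. It averaged 9.88 ± 1.21 CPM in KO and 25.1 ± 0.610 CPM in WT (SD, n = 2 each). Its log2 fold change of -1.34 (SE 0.34, 95% interval -2.15 to -0.53) had an edgeR adjusted p of 0.545 and was between -1.50 and -1.22 when each library was left out. The related Itga4, a leukocyte chain that binds VCAM1 and fibronectin, had 15.6 and 19.6 CPM in KO, and 22.5 and 9.23 CPM in WT. The Itga4 groups overlapped, and its log2 fold change of 0.15 was -0.02 without KO replicate 2 and -0.36 without WT replicate 2. Cerkl, on the opposite strand, shares 8.0% of the exon bases of Itga4 and had at most 66 counts.

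Leukocyte alpha subunits, which carry an inserted ligand-binding domain, differed among themselves, with Itgad far lower in KO and Itgal and Itgam overlapping. All 4 tested genes of this group had a negative log2 fold change (beside 49.6% of all tested genes), with a median of -0.72. It was -2.32 without KO replicate 1, -0.48 without KO replicate 2, -1.24 without WT replicate 2 and 0.08 without WT replicate 1. Itga4, given above with Itga9, was not counted in this group, and its log2 fold change was 0.15. Itgad, the CD11d chain of tissue macrophages (ENSMUSG00000070369, chromosome 7, 128154376 to 128223816), had 14 and 6 counts in KO, and 115 and 109 counts in WT. That is 0.864 and 0.378 CPM in KO, and 6.26 and 7.08 CPM in WT, 10.6-fold higher in WT. On the log2 scale the difference was -3.41 (SE 0.62, 95% interval -4.89 to -1.93), with an edgeR adjusted p of 0.424. DESeq2 gave an adjusted p of 5.6e-04, the lowest of the alternatives for this gene, whose highest was 1.00. Genes on the opposite strand share exon bases with Itgad, and 2 of them, 4931431B13Rik and Cox6a2, had 1 to 7 counts per library, about as many as Itgad in KO replicate 2.

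Itgax, the CD11c chain of dendritic cells and some macrophages, lies beside Itgad (chromosome 7, 128129547 to 128150657). It had 22.2 and 15.4 CPM in KO, and 46.9 and 24.0 CPM in WT. The groups of Itgax were only just apart, with a log2 fold change of -0.92 (SE 0.42, edgeR adjusted p = 0.627). Itgam, the CD11b chain of myeloid cells (chromosome 7, 128062640 to 128118491), had 181 and 13 counts in KO, and 246 and 57 counts in WT. Replicates 1 were high and replicates 2 low in both groups, and the log2 fold change of -0.51 (SE 1.07) ranged from -3.40 without KO replicate 1 to 0.66 without WT replicate 1. Gm49368, a coding gene on the same strand, covers 68.7% of the exon bases of Itgam and had 0 and 26 counts in KO, and 0 and 30 counts in WT, so how reads were divided between the genes is uncertain. Itgal, the LFA-1 chain of lymphocytes, had 8.51 and 9.84 CPM in KO, and 14.8 and 6.11 CPM in WT, with both KO libraries between those of WT.

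Among beta subunits, Itgb3 and Itgb5 were lower in both KO libraries and Itgb1 overlapped. Of the 6 tested beta genes 4 had a negative log2 fold change (66.7%, beside 49.6% of all tested genes). Their median of -0.49 was -0.18 without KO replicate 2 and -0.26 without WT replicate 1. Both KO libraries lay below both WT libraries in 2 of the 6 (33.3%, beside 20.1% of all tested genes). Itgb7 was the single member of the 6 with both KO libraries above WT, beside 21.9% of all tested genes. Itgb3, the beta chain of the platelet fibrinogen receptor and of the alpha v beta 3 receptor of endothelial cells and macrophages (ENSMUSG00000020689, chromosome 11, 104608000 to 104670476), had 71 and 36 counts in KO, and 336 and 280 counts in WT. That is 4.38 and 2.27 CPM in KO, and 18.3 and 18.2 CPM in WT, 5.47-fold higher in WT. On the log2 scale the difference was -2.45 (SE 0.45, 95% interval -3.53 to -1.38), with an edgeR adjusted p of 0.424. DESeq2 gave an adjusted p of 5.7e-04, the lowest of the alternatives for this gene, whose highest was 1.00. The value was between -3.03 and -2.06 when each library was left out.

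Itgb5 (chromosome 16, 33829665 to 33949338) had 118 and 99.1 CPM in KO, and 160 and 195 CPM in WT. Its groups did not overlap, with a log2 fold change of -0.71 (SE 0.31, edgeR adjusted p = 0.606). Itgb1 had 172 and 125 CPM in KO, and 192 and 167 CPM in WT. KO replicate 1 of Itgb1 lay above WT replicate 2, and the log2 fold change was -0.28 (95% interval -1.04 to 0.49, edgeR adjusted p = 0.823). Itgb2, the shared beta chain of the subunits of Itgad, Itgal, Itgam and Itgax, had 32.2 and 15.6 CPM in KO, and 50.2 and 29.1 CPM in WT. Replicates 1 were the higher in both groups, and the log2 fold change of -0.73 was -1.37 without KO replicate 1, -0.30 without KO replicate 2 and -0.32 without WT replicate 1. Itgb7, the chain of gut-homing lymphocytes, had 6.04 and 5.55 CPM in KO, and 5.12 and 3.05 CPM in WT. Itgb4, the hemidesmosome chain that pairs with alpha 6, had 16 and 24 counts in KO, and 3 and 17 counts in WT, with overlap after scaling.

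**Figure D4:**
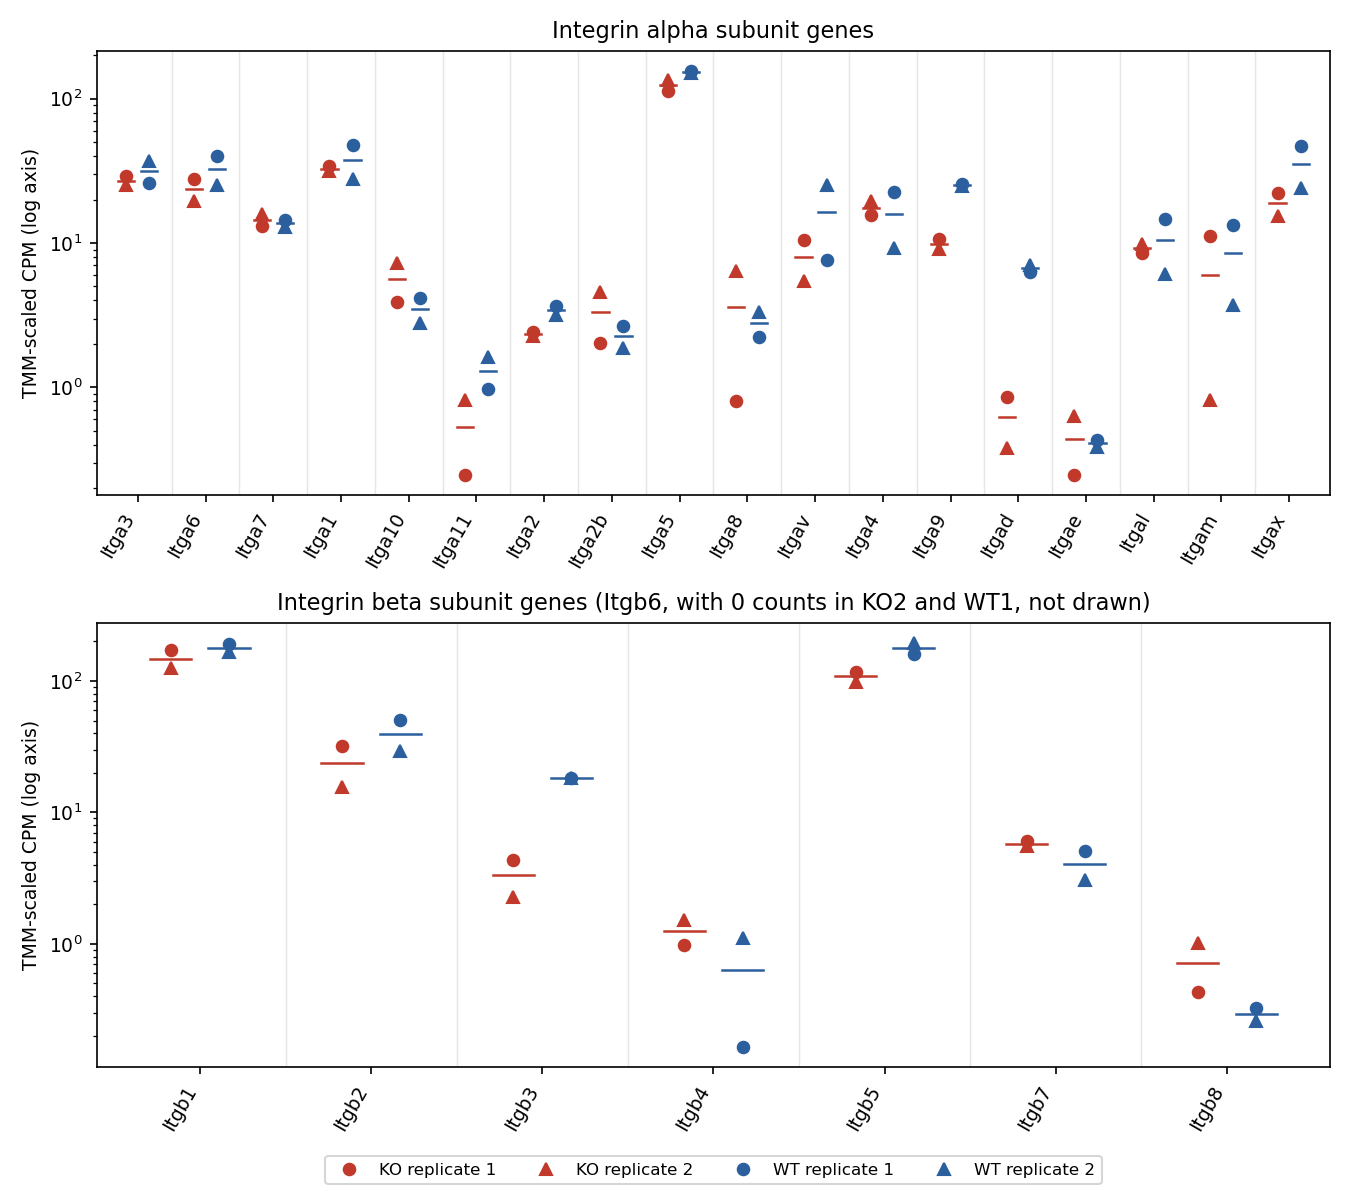
TMM-scaled CPM (vertical log axes) of integrin alpha subunits (upper panel, ordered by ligand group) and beta subunits (lower panel) in each library. Circles are replicates 1, triangles replicates 2, short lines group means, red KO and blue WT. Itga9, Itgad and Itgb3 have tight WT points well above both KO points, while Itgam spreads with the replicate number in both groups.

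Subunits that pair with each other were often unequal in FPKM. Itgb5, whose known partner is alpha v, had 29.7 and 48.4 times the FPKM of Itgav in KO, and 56.0 and 20.5 times in WT. Itgb3 had 2.02 and 0.464 times the FPKM of Itga2b in KO, and 6.45 and 9.08 times in WT, so that this ratio was lower in both KO libraries. Itgb2 had 1.65 and 1.16 times the FPKM of Itgax in KO, and 1.22 and 1.38 times in WT. Itgb1 took 48.9% and 47.5% of the summed beta FPKM in KO, and 43.0% and 38.8% in WT. The Itgb1 share was higher in both KO libraries, while its CPM overlapped between the groups. Itgb3 took 0.815% and 0.566% in KO, and 2.68% and 2.76% in WT.

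Other genes of the basement membrane and of integrin function leaned lower in KO by number, as the members did. Their counts stand beside 20.1% of all tested genes with both KO libraries below WT and 21.9% above. In the order of the 4 lists below, 62.5%, 87.5%, 75.0% and 75.0% of tested genes had a negative log2 fold change. The share was 76.5% of members and 49.6% of all tested genes. Without WT replicate 2, the lists had 9 of 16, 5 of 8, 10 of 20 and 19 of 28 genes negative. The members then had 24 of 34 negative, and all tested genes 7824 of 16301. Both KO libraries lay below WT in 37.5%, 37.5%, 35.0% and 32.1% of the lists, beside 38.2% of members. Of 20 partners of laminin in the basement membrane, 16 were tested, 6 had both KO libraries below WT and 2, Nid2 and Agrn, above. The median log2 fold change of -0.07 was -0.18 without WT replicate 1, -0.32 without KO replicate 2 and -0.46 without WT replicate 2. Col4a2 and Col4a1, the main type IV collagen chains, stood at -1.14 (SE 0.30) and -0.91 (SE 0.34) on the log2 scale, KO over WT, and Sparc, a collagen-binding matrix protein, at -1.10 (SE 0.35). Of 9 non-integrin laminin receptors, 8 were tested, 3 lay below and 0 above, with a median of -0.27 that was -0.41 without KO replicate 1 and -0.55 without WT replicate 1. The dystroglycan gene Dag1 had 67.5 and 73.8 CPM in KO, and 171 and 120 CPM in WT, and the Lutheran glycoprotein gene Bcam and the syndecan gene Sdc1 had log2 fold changes of -1.22 and -0.47. Of 22 other integrin ligands, 20 were tested, 7 lay below and 2, Spp1 and Icam1, above, with a median of -0.40 that was 0.01 without WT replicate 2. Mfge8, an RGD ligand of alpha v integrins, had 21.5 and 20.3 CPM in KO, and 42.9 and 57.4 CPM in WT, and Postn and Tgfb1 had log2 fold changes of -1.33 and -0.91. Of 28 activators and adapters, all tested, 9 lay below and 0 above, with a median of -0.24 that was -0.13 without KO replicate 2 and -0.14 without WT replicate 2. The 4 genes named as above WT were chosen after their values were seen. The parvin genes Parvg and Parvb, which link integrins to actin, had log2 fold changes of -1.37 and -1.10, and the filamin gene Flna had -0.77. In these 4 lists 0 genes passed edgeR's adjusted threshold and 0 passed DESeq2's.

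All tested markers of smooth muscle and pericytes, neutrophils and red cells lay below WT in both KO libraries. The other lists varied, and all 4 tested dendritic cell markers had a positive log2 fold change. The counts of each marker list stand beside 20.1% of all tested genes with both KO libraries below WT and 21.9% above. The part of any list in the results was not tested. The 6 smooth muscle and pericyte markers summed to 72.8 and 98.7 CPM in KO, and 252 and 193 CPM in WT. All 6 were lower in both KO libraries (median log2 fold change -1.40), with Acta2, Cnn1 and Myh11 at the smallest p and Acta2 and Tagln the most abundant. The 10 endothelial markers summed to 127 and 107 CPM in KO, and 169 and 204 CPM in WT. Of these, 6, among them Stab2, Vwf, Pecam1 and Cdh5, lay below, while Clec4g, of sinusoids, was at 0 in WT replicate 1. The endothelial median log2 fold change of -0.71 was -0.31 without WT replicate 2. The 8 stellate and fibroblast markers summed to 606 and 1119 CPM in KO, and 1317 and 1136 CPM in WT. Of these, 3 lay below, Des, Col1a1 and Col3a1, while Pdgfrb overlapped. The stellate and fibroblast median of -0.46 was -0.13 without KO replicate 1 and -1.02 without KO replicate 2. No smooth muscle, pericyte, stellate or fibroblast marker was at 0 in any library.

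The 6 markers of all leukocytes summed to 202 and 134 CPM in KO, and 381 and 359 CPM in WT, and 5, including Lcp1, Laptm5 and Rac2, lay below. Ptprc, which encodes CD45, overlapped, with 592 and 573 counts in KO, and 1003 and 65 counts in WT. The 8 macrophage and monocyte markers summed to 193 and 151 CPM in KO, and 307 and 469 CPM in WT. Of these, 4 lay below, with Csf1r, Mrc1 and Adgre1 at log2 fold changes of -1.41, -1.42 and -1.79, and Ly6c2 lay above. The macrophage and monocyte median log2 fold change of -1.42 was -0.25 without WT replicate 2. The abundant marker Cd14 overlapped. The Kupffer cell marker Clec4f had 13 and 143 counts in KO, and 0 and 917 counts in WT. The 7 neutrophil markers summed to 14.0 and 14.8 CPM in KO, and 25.2 and 67.4 CPM in WT, and all 6 tested lay below, with S100a8, S100a9 and Retnlg at the smallest p and Csf3r also abundant, while Ly6g was at 0 in all 4 libraries. The 9 T cell and NK cell markers, with Cd4, Cd8a and Cd3e, summed to 17.6 and 15.6 CPM in KO, and 26.2 and 9.42 CPM in WT, with 0 below and 2 above of 7 tested. The 6 dendritic cell markers, with Flt3, Zbtb46 and Siglech, summed to 8.39 and 10.5 CPM in KO, and 8.06 and 7.15 CPM in WT. That sum was higher in both KO libraries, with 0 genes below and 1 above of 4 tested. The dendritic cell median log2 fold change was 0.35. The 5 B cell and plasma cell markers, with Cd79b and Jchain first, summed to 3.15 and 5.93 CPM in KO, and 3.70 and 3.70 CPM in WT.

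The 10 platelet and megakaryocyte markers summed to 13.4 and 12.1 CPM in KO, and 26.8 and 75.9 CPM in WT. Of 5 tested, Pf4, Ppbp and Clec1b lay below and Gp1ba lay above. Of the other surface genes, Gp6 was at 0 counts in all 4 libraries, and Gp9 at 0 in both KO libraries and at 1 count in each WT library. The 6 red cell markers summed to 212 and 150 CPM in KO, and 956 and 2172 CPM in WT, and all 5 tested, with Hbb-bt, Hba-a2 and Hba-a1 first, lay below; how reads were divided among the near-identical globin copies is uncertain. The 5 liver tumour markers, Gpc3, Afp, Epcam, H19 and Igf2, summed to 3684 and 5376 CPM in KO, and 1483 and 8120 CPM in WT. The 6 bile duct markers, with Spp1, Sox9 and Krt19 first, summed to 1070 and 1126 CPM in KO, and 415 and 974 CPM in WT. The bile duct sum was higher in both KO libraries, with 0 genes below and 1 above of 5 tested. Among the marker lists DESeq2 called Acta2, Csf1r, S100a8, S100a9, Lcp1, Laptm5, Pf4, Ppbp and 4 globin genes, all lower. Over all genes with a DESeq2 adjusted p, 0.565% were called lower and 0.432% higher. By edgeR 0 markers were called, beside 0% of all tested genes.

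**Figure D5:**
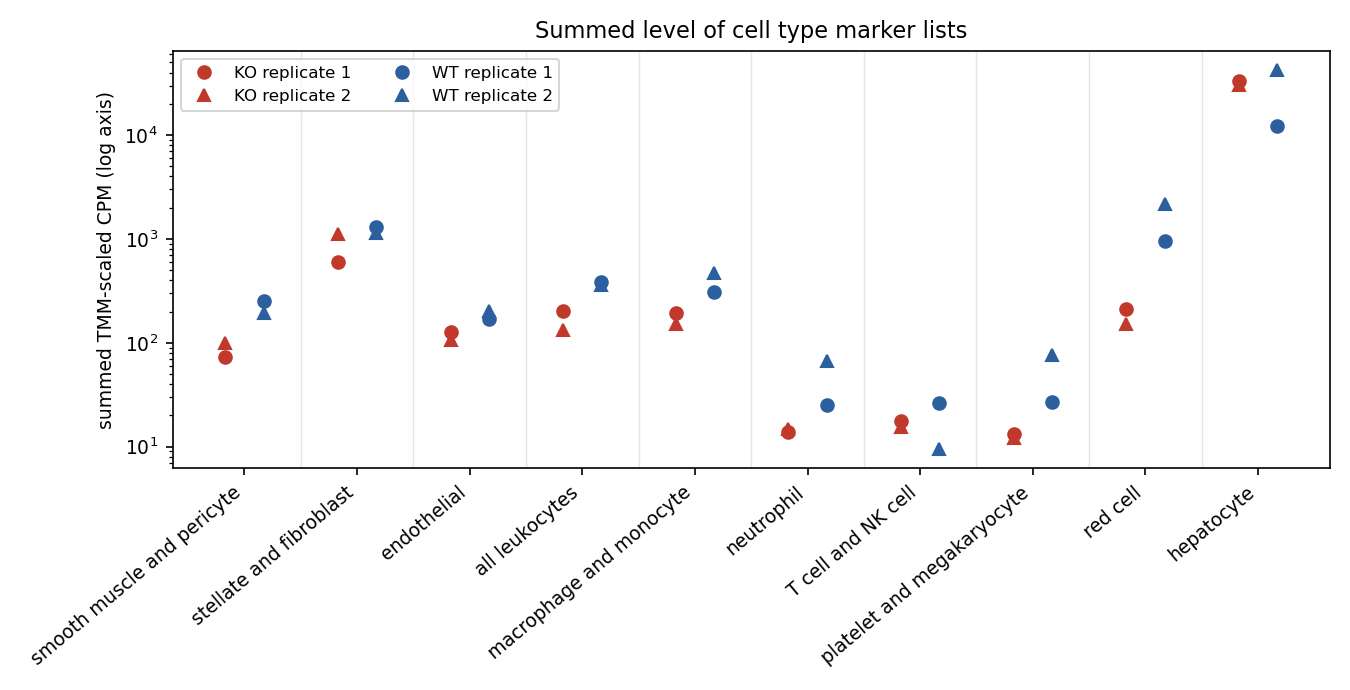
Summed TMM-scaled CPM (vertical log axis) of 10 cell type marker lists (horizontal axis) in each library. Circles are replicates 1, triangles replicates 2, red KO and blue WT. The smooth muscle, endothelial, leukocyte, macrophage, neutrophil, platelet and red cell sums are lower in both KO libraries, and the stellate sum only just. Hepatocyte and T cell sums overlap. The dendritic cell and bile duct sums, higher in both KO libraries, are not drawn.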

How the data were processed

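Poly(A) RNA of bulk tumour tissue was sequenced from 4 mice, 2 labelled KO and 2 labelled WT, per the labels' protocols. The authors deposited 1 table of 55487 genes with raw counts and FPKM for each library. Per the submitters' processing notes the tools were StringTie, HISAT2, edgeR and SAMtools 1.3.1 and the build mm10, and what each did is not said there. Each deposited FPKM was its count divided by 1 length per gene and by the library total (100% of values at 10 counts or more, within 1%), and FPKM served only for comparing levels between genes. Symbols, spans and exons came from GENCODE M21, whose spans equalled the deposited ones for all 37 members.

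Genes were filtered with edgeR's filterByExpr by group (16310 kept), scaled with TMM, and fitted on both groups by edgeR's quasi-likelihood method (edgeR 4.0.16 in R 4.3.3). P-values are two-sided, Benjamini-Hochberg adjusted across the whole table, and called under 0.05. SEs are the size of the log2 fold change divided by the root of F. The test was also run on simulated data, and the outcome is not given here. Alternatives were other scalings and filters, DESeq2 1.42.0, limma-voom (limma 3.58.1), a replicate block and leaving out each library. DESeq2 gave no adjusted p to Itga11, Itgb4 and Lama1. With 2 libraries a group, the spread is pooled largely over genes. A floor of 3 counts is 0.176 to 0.188 CPM and covers counting error only.

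The members and the 18 gene lists (176 symbols, 175 found) were chosen with earlier results of these data known. Some results, 1 member's values among them, are not reported here. Full statistics go to the 2 smallest p in laminins, leukocyte alpha, other alpha and beta subunits, and to the most abundant of each role; up to 3 genes of smallest p are named per list, and others for their level. The replicate numbers of the titles are not stated to pair animals.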

Additional observations from a re-analysis of the deposited data

How the results depend on the processing

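No member passed an adjusted p of 0.05 under DESeq2's size factors, library totals, either filter, limma-voom, the replicate block or without mitochondrial genes. The medians of laminins, integrin alpha and integrin beta subunits moved by less than the spread between replicates under all alternatives. For integrin alpha that spread, 0.33, was larger than the median of -0.31 itself, so it could not show that this median was steady. Over the members then tested, the integrin alpha median was -0.03 without WT replicate 1. For integrin beta the spread was 0.34, and the median of -0.49 was -0.18 without KO replicate 2, so this spread was also a wide measure. Members called lower were 3 with DESeq2, and 0 to 2 when each library was left out, the 2 being Itgad and Itgb3 without WT replicate 1. Over all genes, those called higher and lower were 65 and 85 with DESeq2, 0 and 1 with library totals, 0 and 1 with limma-voom, and 2 and 2 with the replicate block, whose pairing the labels do not state (correlation of same-numbered deviations 0.12). When each library was left out they ranged from 0 to 209 higher and 0 to 200 lower, the largest counts without WT replicate 1, and 29 and 39 without WT replicate 2. Each such fit takes the lone library to vary as the other group does. Members with a negative log2 fold change numbered 21 to 29 when each library was left out and 27 of 34 with the replicate block.

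The direction held in 21 of 34 tested members under every alternative that gave a value. Itga8, at 0.37, was -0.25 with limma-voom and -0.18 with the replicate block. When each library was left out, 13 members changed sign, and for 12 of them the ranges were -0.54 to 0.21 for Itga1, -0.16 to 0.98 for Itga2b, -0.48 to 0.0551 for Itga3, -0.36 to 0.89 for Itga4, -0.0708 to 0.18 for Itga7, -1.78 to 1.17 for Itga8, -0.69 to 0.55 for Itgal, -3.40 to 0.66 for Itgam, -1.70 to 0.0725 for Itgav, -2.75 to 1.30 for Lama1, -0.79 to 0.49 for Lamb2 and -2.12 to 0.40 for Lamc3. The cause was not tested. Itgae and Itgb6 did not pass the filter on low counts, and Lama1 had at most 24 counts in any library. With 2 libraries a group, no difference was resolved in these genes. The separation of Itga11 rested on at most 25 counts in any library.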
